A study of Rattus norvegicus with 6 samples.

Results

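The ZFP36, BTG and TOB genes, with the RNase gene Zc3h12a, were followed across 3 groups of RBL-2H3 cells, which come from a rat basophilic leukaemia and serve as a model of mast cells. They were chosen by name as 9 genes whose products speed or control the decay of messenger RNA. The 9 were Zfp36, Zfp36l1, Zfp36l2, Zc3h12a, Btg1, Btg2, Btg3, Tob1 and Tob2. Earlier results of these data were known at that choice, so counts of members called are descriptive in all 3 comparisons. The array annotation gave a probe set to 8 of the 9, of 14506 genes named in all, and each of the 8 had 1 probe set of its own. No probe set carried Btg2, so that gene was not analysed here. All cells stably overexpressed wild-type Dectin-1, a receptor for beta-glucans that signals through the kinase Syk. The control group received no stimulus, the curdlan group received the beta-glucan curdlan, and the third group was given curdlan after pretreatment with R406, an inhibitor of Syk. Each group had 2 arrays, 6 in all. No group received R406 alone, so the effect of R406 on resting cells cannot be told apart from its effect on the curdlan response. The sources used here do not give doses, times or whether the line was a single clone.

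ZFP36 proteins carry CCCH zinc fingers that bind AU-rich elements in messenger RNAs, among them those of many cytokines, and bring the CCR4-NOT complex, which removes the poly(A) tail. Zc3h12a encodes Regnase-1, an endonuclease that cuts stem-loops in inflammatory messenger RNAs and is itself cleaved by the protease MALT1 in stimulated lymphocytes. BTG and TOB proteins share a domain that binds the CNOT7 and CNOT8 deadenylases, and they are known as antiproliferative proteins. In many cell types Zfp36 is an immediate early gene, while Btg1 is known from other systems as a target of FOXO factors and as a marker of quiescent lymphocytes.

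Values are the authors' deposited log2 signals, and a change is a difference between group means, given with its standard error (SE) from the model. A gene was called where limma's p, adjusted by Benjamini-Hochberg over all 29214 probe sets, was under 0.05. Array medians spanned 7.204 to 7.241, and all 8 probe sets lay above the median probe set. Clec7a, which encodes Dectin-1, had means of 7.07, 7.22 and 7.12 in control, curdlan and R406 plus curdlan. These lie near the median probe set, at 7.222, so the stated overexpression is not seen in this signal. Whether its probe set detects the overexpressed Dectin-1 is not known here. Neither Clec7a nor Syk was called in any comparison. Of 13 measured mast cell markers, 10 were above the median probe set, led by Gata2, with a median signal of 12.75. None of the 6 lymphocyte markers was above it, nor were 10 of 12 macrophage and neutrophil markers and 5 of 9 fibroblast and epithelial markers. No marker was called with curdlan, where 1.59% of all probe sets were. At an unadjusted p under 0.05 there were 7 of these 40 markers and 4214 of all 29214 probe sets. Itgam was the 1 marker called under R406 against curdlan alone, at -0.36 ± 0.0661, where 7.25% of all probe sets were called. Nothing in the labels tells whether both arrays of a group stem from different cultures, and the p-values cover the spread between arrays, part or all of which may be technical.

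The members did not move as a block. With curdlan, Zfp36l2 rose and Btg1 fell, and the other 6 measured genes were not called. Under R406 plus curdlan, Zfp36, Zfp36l1, Zfp36l2, Btg3 and Tob2 were lower than with curdlan alone, and Btg1 was higher. Zfp36 and Btg3 were then also below the unstimulated control, whereas Zfp36l2 and Tob2 lay close to it. Zc3h12a and Tob1 were called in no comparison.

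**Figure D1:**
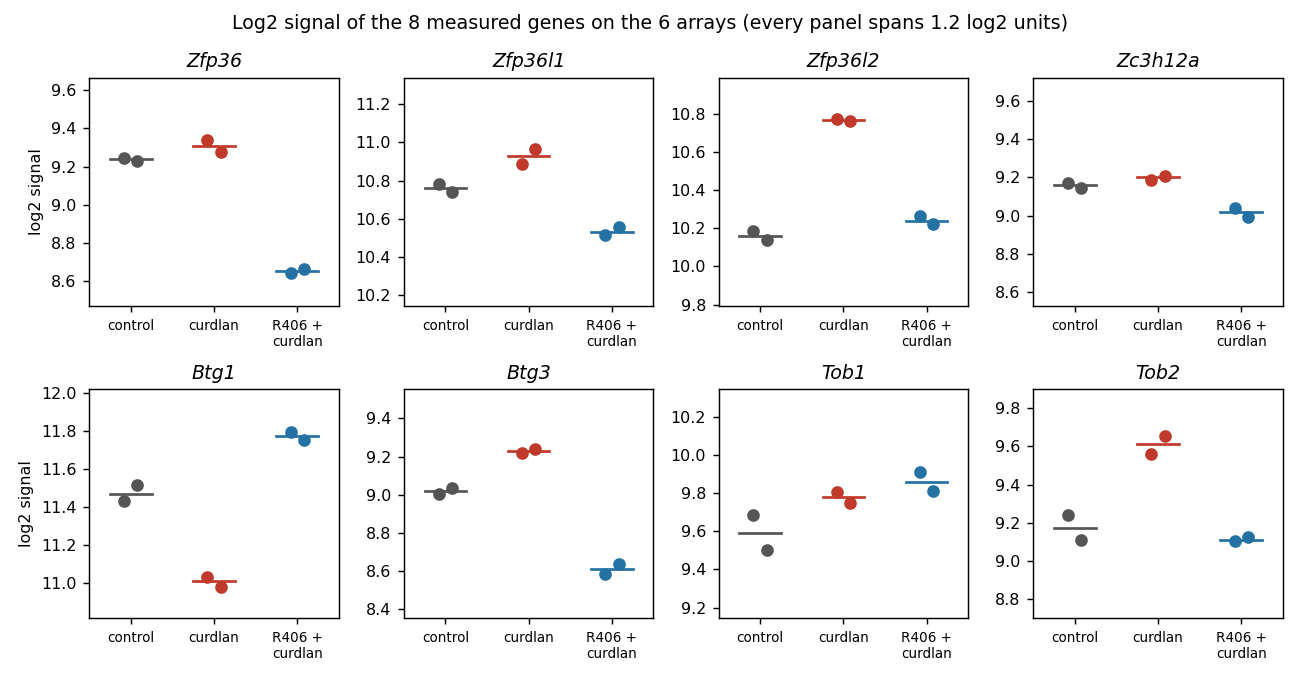
Log2 signal (vertical axes) of the 8 measured genes by group (horizontal axes), with a point for each array and a line at the mean of the 2 arrays of a group. Zfp36l2 is highest in the curdlan arrays, at 10.76 and 10.77, Zfp36 is lowest in the R406 plus curdlan arrays, at 8.64 and 8.66, and Btg1 is lowest in the curdlan arrays, at 10.98 and 11.03.

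Windows at the starts of 3 genes are shown first because the patterns of these genes stand for those described below. Zfp36 was lowest after R406, Zfp36l2 was highest with curdlan and Btg1 was lowest with curdlan. The windows are from RefSeq (GRCr8) and run from 250 bases before to 50 after the gene's start, 5′ to 3′ on the gene's strand. Whether that start is the start of transcription was not tested for any member. The last 50 bases of the Btg1 window open with the letters of a start codon, atg. Bases before them may therefore be transcribed, and a motif position is relative to the listed start only. All 9 members had such a window. That of Zfp36 lies at chr1:92799059-92799358 on the minus strand, that of Zfp36l2 at chr6:16242372-16242671 on the plus strand and that of Btg1 at chr7:33227899-33228198 on the plus strand. Capitals mark matches to 8 motifs searched on both strands.
Zfp36: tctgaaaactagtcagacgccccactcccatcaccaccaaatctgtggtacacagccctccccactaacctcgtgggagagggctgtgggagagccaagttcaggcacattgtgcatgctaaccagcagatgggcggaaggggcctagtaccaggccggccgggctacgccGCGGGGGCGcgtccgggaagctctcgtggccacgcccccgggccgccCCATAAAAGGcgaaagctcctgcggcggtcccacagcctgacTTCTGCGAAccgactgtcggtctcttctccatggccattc
Zfp36l2: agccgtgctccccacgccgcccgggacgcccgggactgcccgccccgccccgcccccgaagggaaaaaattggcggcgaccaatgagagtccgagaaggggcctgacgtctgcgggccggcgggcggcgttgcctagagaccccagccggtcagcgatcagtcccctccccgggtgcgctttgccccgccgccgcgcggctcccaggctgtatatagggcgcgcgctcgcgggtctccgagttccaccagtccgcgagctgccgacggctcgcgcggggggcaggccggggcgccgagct
Btg1: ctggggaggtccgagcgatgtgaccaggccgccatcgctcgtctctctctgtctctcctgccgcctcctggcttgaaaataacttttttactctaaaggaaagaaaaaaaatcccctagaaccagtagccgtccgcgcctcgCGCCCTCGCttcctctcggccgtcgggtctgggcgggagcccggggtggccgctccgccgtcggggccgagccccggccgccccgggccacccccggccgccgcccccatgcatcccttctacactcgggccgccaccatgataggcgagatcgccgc
In the Zfp36 window the capitals are, from left to right, an EGR motif (GCGNGGGCG) from position -79 relative to the gene's start, a CArG box of serum response factor from position -32, and a STAT5 motif (TTCNNNGAA) from position 11. The capitals of the Btg1 window are an EGR motif on the other strand, from position -108. The Zfp36l2 window holds none of the 8. EGR proteins and serum response factor are transcription factors of the immediate early response. Of all 33469 rat windows of this length, 4.98% held the EGR motif, 1.64% the CArG box and 8.87% the STAT5 motif.

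Of the other 6 windows, that of Zfp36l1 held an AP-1 motif (TGANTCA), present in 7.33% of all windows. That of Btg2 held a cAMP response element (TGACGTCA) and an EGR motif, the former present in 1.83% of all windows. That of Tob1 held an NF-kB motif, present in 7.51%. The Zc3h12a, Btg3 and Tob2 windows held none of the 8. A FOXO motif (GTAAACA), in 3.78% of all windows, and an E-box (CACGTG), in 6.42%, were in no member's window. The EGR motif was thus in 3 of 9 windows, among them those of Zfp36 and Btg1, which moved in opposite directions under R406. These 3 windows were 63.7% (Zfp36), 67.3% (Btg1) and 69.7% (Btg2) G or C. Windows of all 9 members ran from 40% to 78.7%, against a median of 51.7% over all windows. The motif is itself rich in G and C, and its share over all windows was not matched for base composition. A match describes the letters of the window and does not show that a factor binds there.

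The first comparison asked which genes respond when Dectin-1 is stimulated. Of the 8 measured genes 1 was called higher with curdlan and 1 lower, where 1.04% of all 29214 probe sets were called higher, 0.551% lower and 1.59% in either direction. Among the 14607 probe sets above the median signal, where all 8 lay, these shares were 1.89% and 1.03%. At an unadjusted p under 0.05, 4 of the 8 were higher and 1 lower, against 2093 higher and 2121 lower of all 29214 probe sets. The median change of the 8 was 0.173, against -0.011 for all probe sets.

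Zfp36l2 (probe set 10888150) encodes a ZFP36 protein known for its part in lymphocyte and erythroid development in mice. Its log2 signal was 10.18 and 10.14 on the control arrays, 10.77 and 10.76 on the curdlan arrays, and 10.27 and 10.22 after R406. Both curdlan arrays were above all 4 others, by at least 0.50. With curdlan it rose by 0.60 ± 0.0468 (limma, adjusted p = 0.0133), a 1.52-fold change with a 95% interval of 0.48 to 0.72 in log2 units. RefSeq also lists a pseudogene, Zfp36l2-ps1, and whether the probes detect it is not known here.

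Btg1 (probe set 10895069), the antiproliferative gene named above, had log2 signals of 11.43 and 11.52 in control, 11.03 and 10.98 with curdlan, and 11.79 and 11.75 after R406. The 3 groups did not overlap, and the curdlan arrays were the lowest. With curdlan it fell by 0.47 ± 0.0544 (limma, adjusted p = 0.0339), to 0.723 times the control level. The calls of both genes rest on all 6 arrays. Without any 1 of the 6, neither was called, with an adjusted p of 0.0685 to 0.121 for Zfp36l2 and of 0.119 to 0.183 for Btg1, although the changes stayed at 0.58 to 0.63 and -0.51 to -0.42.

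Tob2 (probe set 10905645), which encodes a TOB protein, had log2 signals of 9.24 and 9.11 in control, 9.56 and 9.66 with curdlan, and 9.11 and 9.12 after R406. Both curdlan arrays were above both control arrays, by 0.32. The change was 0.44 ± 0.0661, which missed the threshold (limma, adjusted p = 0.0573). It was called after quantile normalization (0.0392), with only the probe sets above the median in the fit (0.011) and with an intensity trend in the variance prior (0.00614), but in 0 of the 6 fits with 1 array left out (0.138 to 0.225). RefSeq lists a pseudogene, Tob2-ps1, and whether the probes detect it is not known here.

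Zfp36 (probe set 10720215), which encodes tristetraprolin, the best studied protein of its family, had log2 signals of 9.25 and 9.23 in control and 9.34 and 9.28 with curdlan. The curdlan arrays lay above the control arrays by 0.03 at the nearest. The change was 0.07 ± 0.0472 (limma, adjusted p = 0.584), with a 95% interval of -0.05 to 0.19, so a rise of the size seen for Zfp36l2 lies outside the interval. Zfp36l1 (probe set 10890886), its paralogue, had signals of 10.78 and 10.74 in control and 10.89 and 10.96 with curdlan, a change of 0.16 ± 0.052 (adjusted p = 0.25). Whether the 3 ZFP36 genes differed from each other in their response was not tested.

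Zc3h12a (probe set 10879726) had log2 signals of 9.17 and 9.15 in control and 9.19 and 9.21 with curdlan. Its change of 0.04 ± 0.0459 was within the error (limma, adjusted p = 0.764, 95% interval -0.08 to 0.16). Btg3 (probe set 10752758), a BTG gene known as a target of p53, had signals of 9.004 and 9.035 in control and 9.22 and 9.24 with curdlan, and its change of 0.21 ± 0.0467 was not called (adjusted p = 0.131). Tob1 (probe set 10737506), known as an inhibitor of T cell activation, had signals of 9.69 and 9.50 in control and 9.81 and 9.75 with curdlan, with a change of 0.18 ± 0.0799 (adjusted p = 0.398). Its control arrays were the widest apart of any group of any member, with an SD of 0.131.

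**Figure D2:**
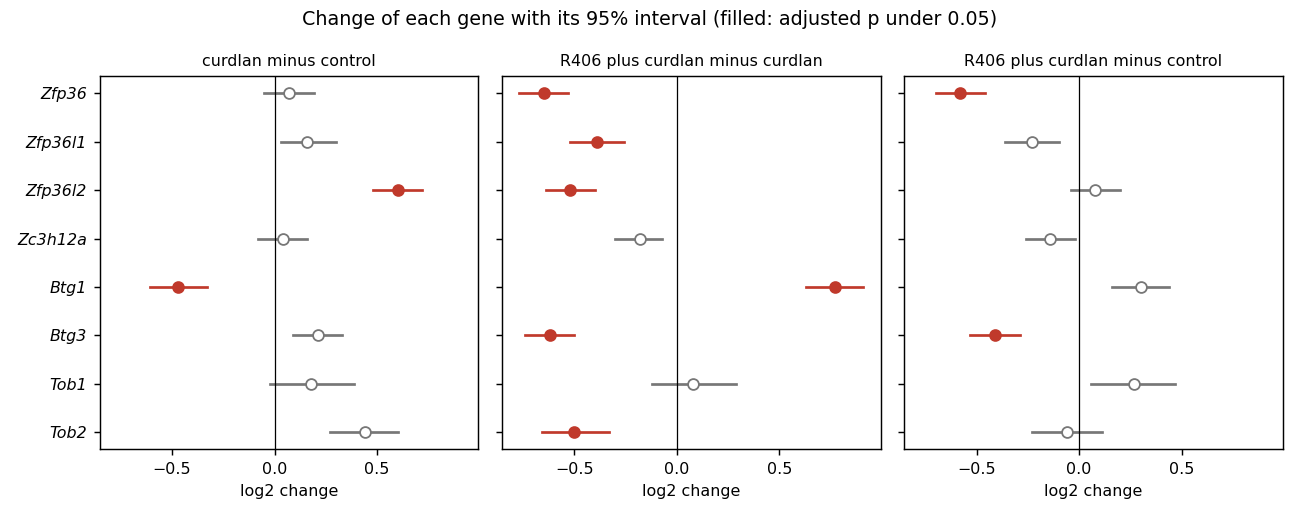
Change in log2 signal (horizontal axes) of each of the 8 genes in the 3 comparisons, with the 95% interval of the fit as a bar and filled points for an adjusted p under 0.05. Zfp36l2 and Btg1 are filled for curdlan minus control, 6 genes for R406 plus curdlan minus curdlan, and Zfp36 and Btg3 for R406 plus curdlan minus control.

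The second comparison asked how levels after R406 differed from those with curdlan alone. It uses the same curdlan arrays as the first, so the values of the 2 comparisons are given side by side and were not correlated. Of the 8 measured genes 5 were called lower and 1 higher, where 3.23% of all probe sets were called lower, 4.02% higher and 7.25% in either direction. Among the probe sets above the median signal the shares were 5.59% lower and 7.05% higher. The median change of the 8 was -0.444, against -0.002 for all probe sets. Because the members were chosen with earlier results of these data known, these counts and this median are no independent evidence about the family.

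Zfp36 had log2 signals of 8.64 and 8.66 after R406, against 9.34 and 9.28 with curdlan alone. The 2 groups were 0.61 apart at their nearest arrays. It fell by 0.65 ± 0.0472 (limma, adjusted p = 0.00409), a 1.57-fold difference with a 95% interval of -0.77 to -0.53. Zfp36l2 fell by 0.52 ± 0.0468 (adjusted p = 0.00678). Zfp36l1, with 10.51 and 10.55 after R406 against 10.89 and 10.96, fell by 0.39 ± 0.052 (adjusted p = 0.0182). All 3 ZFP36 genes were therefore lower on both R406 arrays than on either curdlan array. Such separation is easily reached with 2 arrays a group, and the share of all probe sets with it was not counted. The groups were also apart for Zc3h12a and Tob1, by 0.15 and 0.01, and neither was called.

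Btg1 rose by 0.77 ± 0.0544 under R406 (limma, adjusted p = 0.00389), a 1.7-fold difference with a 95% interval of 0.63 to 0.91. Btg3 moved the other way, with 8.58 and 8.63 after R406 against 9.22 and 9.24 with curdlan. It fell by 0.62 ± 0.0467 (adjusted p = 0.00452), a 1.54-fold difference. Tob2 fell by 0.50 ± 0.0661 (adjusted p = 0.0185). Tob1, with 9.91 and 9.81 after R406, had a change of 0.08 ± 0.0799 (adjusted p = 0.607, 95% interval -0.12 to 0.29). Of the BTG and TOB genes measured, Btg3 and Tob2 were thus lower, Btg1 was higher and Tob1 was not called.

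Zc3h12a had 9.04 and 8.99 after R406 against 9.19 and 9.21 with curdlan alone. Both R406 arrays were lower, but the change of -0.18 ± 0.0459 was not called (limma, adjusted p = 0.0911). It was called where only the brighter probe sets were fitted (0.0178).

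These calls depended on single arrays more than their sizes did. Without R406 plus curdlan replicate 1 none of the 6 genes was called by limma, with adjusted p of 0.0516 for Btg1, 0.0566 for Zfp36, 0.0593 for Btg3, 0.064 for Zfp36l2, 0.12 for Tob2 and 0.125 for Zfp36l1. Without R406 plus curdlan replicate 2 Btg1 alone was called, and the others had adjusted p of 0.0538 for Zfp36, 0.0527 for Btg3, 0.0746 for Zfp36l2, 0.123 for Tob2 and 0.116 for Zfp36l1. Without curdlan replicate 1, Zfp36l1, Zfp36l2 and Tob2 were not called (0.0669, 0.0513 and 0.069), and without curdlan replicate 2, Zfp36l1 and Tob2 were not (0.0829 and 0.0852). Over the 12 alternatives run, other normalizations included, the change of Zfp36 lay between -0.69 and -0.62, that of Btg3 between -0.67 and -0.60 and that of Btg1 between 0.74 and 0.79.

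**Figure D3:**
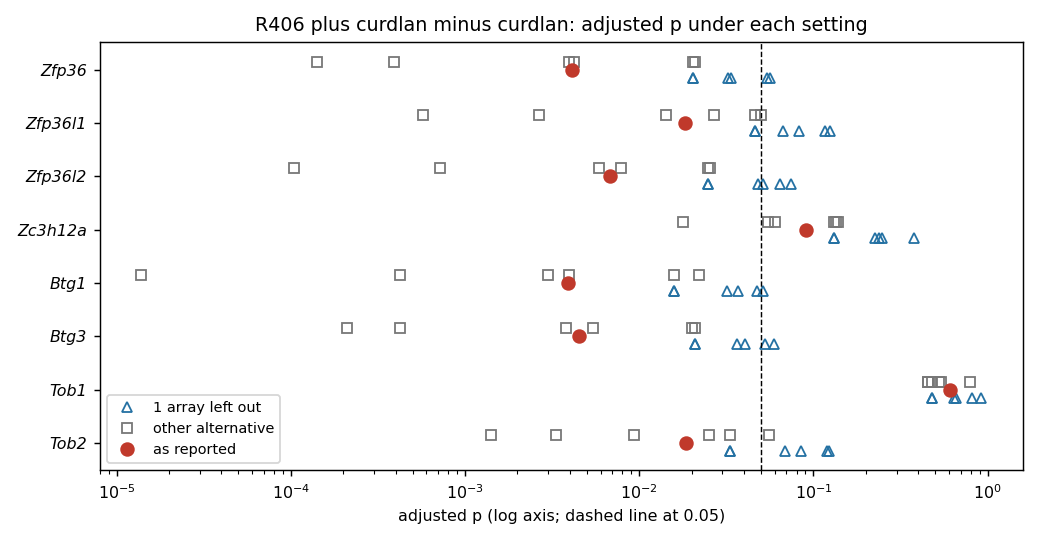
Adjusted p of R406 plus curdlan minus curdlan (horizontal log axis) for each of the 8 genes, as reported (circles), with 1 array left out (triangles) and under the other alternatives (squares), with a dashed line at 0.05. The circles of 6 genes lie below the line, and some triangles of each of these 6 lie above it, the highest at 0.125 for Zfp36l1.

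The third comparison set R406 plus curdlan against the unstimulated control, and shares its arrays with the other 2. Of the 8 measured genes 2 were called lower and 0 higher by limma, where 0.791% of all probe sets were called lower, 1.44% higher and 2.23% in either direction. Among the probe sets above the median signal the shares were 1.34% lower and 2.51% higher. At an unadjusted p under 0.05, 4 of the 8 were lower and 2 higher, against 2846 lower and 3107 higher of all 29214 probe sets. Zfp36 fell by 0.58 ± 0.0472 (limma, adjusted p = 0.0127), to 0.667 times the control level. Btg3 fell by 0.41 ± 0.0467 (adjusted p = 0.0266), to 0.752 times it. For both, each R406 array was below each control array, by 0.57 and 0.37 at the nearest.

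Zfp36l2 differed from control by 0.08 ± 0.0468 (limma, adjusted p = 0.401, 95% interval -0.04 to 0.20) and Tob2 by -0.06 ± 0.0661 (adjusted p = 0.661, 95% interval -0.23 to 0.11). For Zfp36l2 this interval lay below that of its change with curdlan, 0.48 to 0.72. Btg1 had a difference of 0.30 ± 0.0544 (adjusted p = 0.0674), with both R406 arrays above both control arrays. It was called with only the probe sets above the median in the fit (0.0136) and with an intensity trend in the variance prior (0.00366), but in 0 of the 6 fits with 1 array left out (0.117 to 0.287). Zfp36l1 had -0.23 ± 0.052 (adjusted p = 0.105) and was called in the same 2 fits (0.0249 and 0.0148), but in 0 with 1 array left out (0.138 to 0.344). Zc3h12a had -0.14 ± 0.0459 (adjusted p = 0.183) and Tob1 0.27 ± 0.0799 (adjusted p = 0.163).

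The 2 calls of this comparison also depended on single arrays. Zfp36 was not called without control replicate 1 (0.0928), control replicate 2 (0.108), R406 plus curdlan replicate 1 (0.137) or R406 plus curdlan replicate 2 (0.147). Btg3 was not called without any 1 of the 6 arrays, with an adjusted p of 0.0698 to 0.185. The change lay between -0.63 and -0.56 for Zfp36 and between -0.46 and -0.39 for Btg3 in every fit run.

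Ordered by group, the members showed a few shapes. Zfp36 and Btg3 ran from R406 plus curdlan, the lowest, through control to curdlan, and the step from control to curdlan was not called for either. Zfp36l1 had the same order of means with a smaller span, 10.53, 10.76 and 10.93. Zc3h12a had this order too, at 9.02, 9.16 and 9.20, and none of its differences was called. Zfp36l2 and Tob2 had their highest means with curdlan, and their difference between the other 2 groups was not called. Btg1 ran from curdlan through control to R406 plus curdlan. Tob1 had means of 9.59, 9.78 and 9.86 in control, curdlan and R406 plus curdlan, and no step was called.

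The genes with the most similar pattern were found by the root mean square difference in log2 signal, after each gene was centred on its mean over the 6 arrays, among 14505 other named genes. For Zfp36 these were Ndufaf4, Rap1gap2 and Kcnj2, at 0.0244, 0.0451 and 0.0539. For Zfp36l1 they were Polr1a, Sh2b3 and Dhx33, at 0.021 to 0.0232. For Zfp36l2 they were Arid5b, Rabgef1 and Slc30a1, at 0.0374 to 0.0393. No member was among the nearest genes of another member.

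For Btg1 the nearest genes were Klhl6, Nfe2 and Zfyve1, at 0.0359 to 0.0471. For Btg3 they were Tsr1, Aen and Nol9, at 0.0272 to 0.0335, and for Tob2 they were Taf1d, Nmt2 and Rrp7a, at 0.0339 to 0.0407. Klhl6, for example, had centred means of 0.08, -0.44 and 0.36 in control, curdlan and R406 plus curdlan, beside 0.06, -0.41 and 0.36 for Btg1. Likeness over 6 arrays in 3 groups describes these arrays and says nothing of shared function or control.

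The CCR4-NOT deadenylase, which ZFP36, BTG and TOB proteins act through, and other genes of the decay machinery were set beside the members. Of 10 measured genes of the CCR4-NOT deadenylase, 0 were called by limma with curdlan and 0 under R406, with 1 and 4 at an unadjusted p under 0.05. Their median changes were -0.045 and 0.083. The decay machinery was represented by 6 lists: CCR4-NOT, other deadenylases, decapping and 5′ to 3′ decay, the exosome, poly(A)-binding proteins and nonsense-mediated decay. Of their 79 genes 56 were measured, with 13 of 20 for decapping and 5′ to 3′ decay and 4 of 10 for poly(A)-binding proteins. Dcp2, Xrn1, Pabpc1 and Upf1 were not among the 56, so the counts that follow do not cover them. With curdlan 0 of the 56 were called by limma, where 309 of all 14506 named genes were. At an unadjusted p under 0.05 there were 9 of the 56 and 2302 of the named genes. Under R406 3 of the 56 were called higher and 3 lower than with curdlan alone, where 750 and 582 of the named genes were. At an unadjusted p under 0.05 there were 15 of the 56 and 3646 of the named genes.

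The 6 machinery genes called under R406 against curdlan alone went both ways. Noct, which encodes nocturnin, a circadian protein of the deadenylase family, had log2 signals of 9.60 and 9.74 in control, 9.88 and 9.90 with curdlan, and 9.07 and 9.09 after R406. It fell by 0.81 ± 0.0617 against curdlan alone (limma, adjusted p = 0.00469), and by 0.58 ± 0.0617 against control (adjusted p = 0.0224). Noct was therefore lowest after R406, as Zfp36 and Btg3 were. Against curdlan alone, Dis3, a catalytic subunit of the exosome, and Pelo, a ribosome rescue factor, fell by 0.37 ± 0.0599 and 0.35 ± 0.0481. Paip2, an inhibitor of poly(A)-binding protein, Ddx6, a helicase that links deadenylation to decapping, and Pan2, a deadenylase subunit, rose by 0.57 ± 0.0582, 0.41 ± 0.0428 and 0.31 ± 0.0443. With 1 array left out, the call of Noct against curdlan alone was kept in 4 of 6 fits (adjusted p up to 0.0587), that of Paip2 in 3, those of Ddx6 and Pelo in 2 each, and those of Dis3 and Pan2 in 0 (0.0649 to 0.165 and 0.0522 to 0.166). The call of Noct against control was kept in 0 (0.0648 to 0.18).

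Among 18 measured genes of other AU-rich element and stem-loop binding proteins, 1 was called higher and 1 lower in each of the first 2 comparisons. Of all probe sets 1.59% and 7.25% were called in these comparisons, in either direction. At an unadjusted p under 0.05 there were 5 of the 18 in each, against 4214 and 6440 of all 29214 probe sets. With curdlan Samd4b, a Smaug protein that recruits deadenylases, rose by 0.35 ± 0.0441 and Tia1, an AU-rich element binding translational repressor, fell by 0.36 ± 0.0459. Under R406 Tia1 rose by 0.35 ± 0.0459 against curdlan alone and Ythdf2, a reader of methylated adenosine in messenger RNA, fell by 0.30 ± 0.0457. Tia1 thus had the directions of Btg1 in both comparisons. With 1 array left out, the curdlan calls of Samd4b and Tia1 were lost in all 6 fits (adjusted p of 0.139 to 0.195 and 0.138 to 0.191), as was the R406 call of Ythdf2 (0.0569 to 0.174), and the R406 call of Tia1 was kept in 2.

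ZFP36 proteins are phosphorylated by the kinase MK2 downstream of p38, which weakens their action on messenger RNA. Of 14 listed genes of the p38-MK2 and ERK routes 10 were measured, all of them p38-route kinase or phosphatase genes. No ERK gene was among the 10, so the ERK route was not examined. With curdlan 2 of the 10 were called higher and 1 lower, where 1.04% and 0.551% of all probe sets were. Under R406 0 were called higher and 2 lower than with curdlan alone, where 4.02% and 3.23% of all probe sets were. Mapkapk2, which encodes MK2, had log2 signals of 11.95 on both control arrays, 12.37 and 12.33 with curdlan, and 12.00 and 11.99 after R406. It rose by 0.40 ± 0.0443 with curdlan (limma, adjusted p = 0.0305) and fell by 0.35 ± 0.0443 under R406 (adjusted p = 0.0153). Map2k3, which encodes a p38-activating kinase, rose by 0.54 ± 0.0602 and fell by 0.61 ± 0.0602, and Map2k6, which encodes another, fell with curdlan by 0.41 ± 0.0558. With 1 array left out, the curdlan calls of all 3 were lost in all 6 fits (adjusted p of 0.112 to 0.219), and the R406 calls of Map2k3 and Mapkapk2 were kept in 4 and 2. Of 7 measured genes of Card9, Malt1 partners and Regnase-1 turnover, 0 were called by limma in either comparison. At an unadjusted p under 0.05 there were 3 and 1 of them, against 4214 and 6440 of all 29214 probe sets.

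Transcripts reported to carry AU-rich elements, the class that ZFP36 proteins bind, spanned a far wider range than the members. Of 33 measured, 14 were higher and 3 lower with curdlan, with a median change of 0.434. Under R406 1 was higher and 22 lower, with a median of -0.742. Of all probe sets 1.04% were called higher and 0.551% lower with curdlan, and 4.02% and 3.23% under R406. The largest changes were those of Il3, from 4.12 ± 0.156 with curdlan to -5.51 ± 0.156 under R406, and Ccl2, from 3.77 ± 0.0613 to -4.39 ± 0.0613, and these 4 calls were kept in all 6 fits with 1 array left out. In those fits 6 to 11 of the 33 were called higher and 0 to 1 lower with curdlan, and 0 to 1 higher and 15 to 19 lower under R406. The largest change of any member was 0.77, for Btg1. This list was assembled with results of these arrays known and is no independent evidence of direction, and the stability of these transcripts was not measured.

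**Figure D4:**
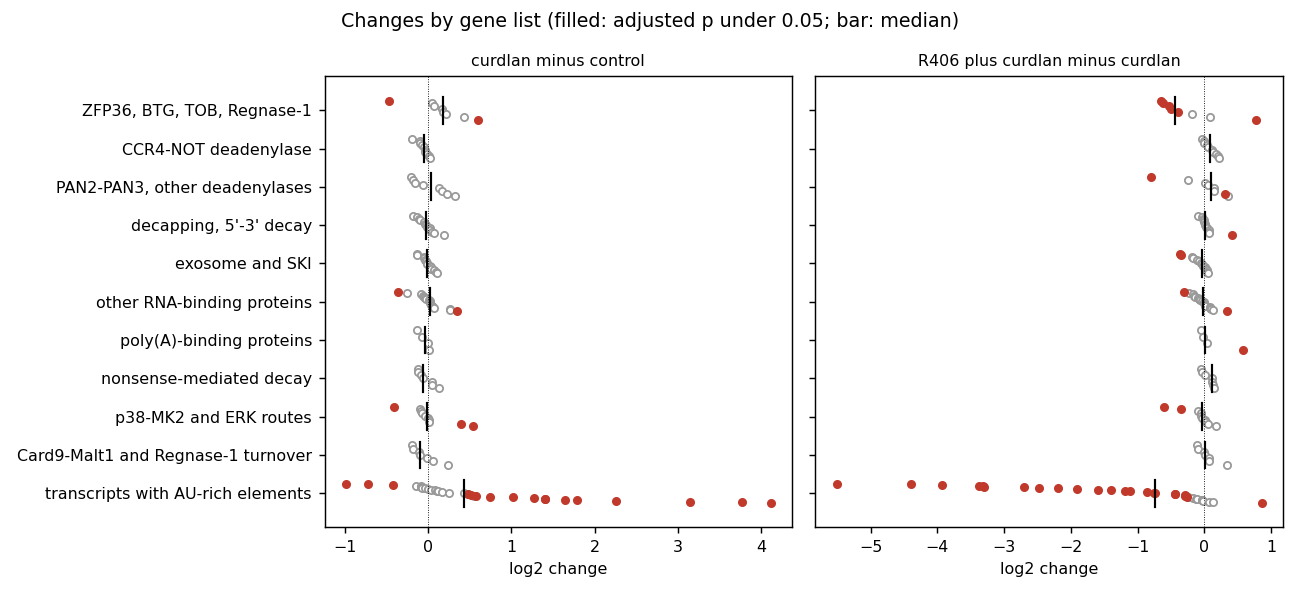
Change in log2 signal (horizontal axes) of each measured gene, by list, for curdlan minus control and R406 plus curdlan minus curdlan, with filled points for an adjusted p under 0.05 and a bar at each list's median. The medians of the decay machinery lists lie near 0, with Noct at -0.81 under R406. The ZFP36, BTG and TOB genes span -0.65 to 0.77 under R406. The transcripts with AU-rich elements reach 4.12 with curdlan and -5.51 under R406. The list of the p38-MK2 and ERK routes holds no measured ERK gene.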

How the data were processed

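RNA of 6 samples was hybridised to rat Affymetrix arrays, 2 per group, and the groups were taken from the sample titles. The authors deposited log2 signals for each probe set on each array, and the submitters' processing notes name Affymetrix Expression Console. The sources used here do not give its version, its background and normalization steps or the genome build, and the log base was inferred from array maxima of 14.369 to 14.41. If the arrays were normalized to each other, a change shared by most transcripts would have been removed. No column belonged to another sample.

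Of 29214 probe sets, 15310 had 1 gene symbol, 323 several and 13581 none in the platform annotation. The probe set with the highest mean stood for a gene. All 6 arrays were fitted in 1 limma model (R 4.3.3, limma 3.58.1) with 3 residual and 2.16 prior degrees of freedom, without filter, and p-values were adjusted over all probe sets. The fit was tested on simulated data. The members and gene lists were chosen with earlier results of these data known. Named genes were all members, up to 2 called genes of each pathway list per comparison with the largest change, and the 3 nearest profiles of each called member. Alternatives were other normalizations, a signal filter, 4-array fits, another prior, a replicate block, a stricter threshold and leaving out each array. The titles do not say whether replicate numbers pair the samples. Differences between replicates 1 and 2 correlated between groups at -0.115, -0.00454 and 0.113. Such values show no strong effect shared by replicate number, but cannot show that the samples were unpaired. Arrays of a group correlated at 0.9975 to 0.9981, and at most 39 values were identical between 2 arrays. Windows at gene starts came from RefSeq (GRCr8). The number of arrays limits precision.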

Additional observations from a re-analysis of the deposited data

How the results depend on the processing

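Calls were sensitive to the settings. No called change of a member turned direction under any alternative run, but much of this was fixed in advance. The signal filter, the 4-array fits, the other prior, the replicate block and the stricter threshold leave the difference of group means as it is. For each called change of a member the groups did not overlap, so leaving out 1 array could not reverse its sign. Only the normalizations and leaving out an array of a compared group could alter a size. Quantile normalization and centring on array medians left every count within 1.5 times its value, 465, 2118 and 652 probe sets for the comparisons in the order given above. Among probe sets above the median signal these counts were 1572, 3717 and 2278, with a trend and robust prior 1598, 3812 and 2400, in fits of only the 4 arrays compared 68, 1232 and 182, and at an adjusted p under 0.01 they were 78, 561 and 66. Titles share replicate numbers without saying whether these pair the samples, and with the replicate block the counts were 102, 1129 and 62. With 1 array left out, 2 residual degrees of freedom remained and the counts were 32 to 68, 210 to 1232 and 15 to 182, where a lone array is assumed to vary like the other groups. Leaving out an array of the group not compared is by construction the same test as the fit of the 4 arrays compared. Members called, 2, 6 and 2 as reported, were 4, 7 and 4 with this signal filter. They were 3, 6 and 4 with the trend and robust prior, 0, 6 and 1 in the fits of 4 arrays, 0, 5 and 0 with the replicate block, 0, 4 and 0 at an adjusted p under 0.01, and 0, 0 to 6 and 0 to 1 with 1 array left out. The fits of pathway genes under these alternatives were chosen after seeing the data. The mean of all probe sets of a gene was not run, since each member had 1.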
